A study of Mus musculus with 6 samples.

Results

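The genes described here are 38 lysosome genes of the mouse liver, taken as the rows of a deposited table of 23036 genes whose symbol was on a list of lysosomal hydrolases, membrane proteins, proton pump subunits and regulators. All 38 were in the table and all 38 had enough counts to be tested. They fall into 10 proteases (Ctsa, Ctsb, Ctsc, Ctsd, Ctsh, Ctsk, Ctsl, Ctss, Ctsz and Lgmn), 7 glycosidases (Gla, Glb1, Gaa, Gusb, Hexa, Naglu and Man2b1) and 4 genes of lipid handling (Lipa, Pla2g15, Npc1 and Npc2). The others are 6 membrane proteins (Lamp1, Lamp2, Mcoln1, Scarb2, Laptm5 and Cd164), 7 genes of the proton pump (Atp6v0d1, Atp6v0d2, Atp6v0c, Atp6v1a, Atp6v1b2, Atp6v1h and Atp6ap1) and 4 of regulation and cargo (Tfeb, Tfe3, Mitf and Sqstm1). The table's own pathway column placed 32 of the 38 in its lysosome pathway.

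Poly-A RNA was sequenced from liver of female mice that started a western diet when 8 weeks old and ate it for 20 weeks, to ask what hepatic Hkdc1, a member of the hexokinase family, does in fatty liver disease with inflammation. The groups are floxed mice without a reported deletion (HKDC1 fl/fl, here flox) and mice with a liver-specific deletion of the same gene (HKDC1 LKO, here LKO). All were on the western diet, so no library shows the liver on a normal diet. The Cre driver, the exons deleted, the strain and the number of mice behind a library do not appear in the labels. Each p-value therefore reflects only variation among these samples, part or all of which may be technical.

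Lysosomes digest what a cell takes in or sets aside, with hydrolases that work in acid. A proton pump, the V-ATPase, acidifies the lumen, and heavily glycosylated membrane proteins line the inside. The transcription factors TFEB, TFE3 and MITF, of the basic helix-loop-helix family, bind E-box sequences near the starts of many lysosome genes and raise their transcription when they enter the nucleus. Their activity is set largely by phosphorylation, which an RNA level does not show. In liver, hepatocytes, Kupffer cells and recruited macrophages all hold lysosomes, and 4 of the genes (Ctss, Ctsk, Laptm5 and Atp6v0d2) are known mainly from macrophages, other blood cells or osteoclasts. In bulk tissue, fewer cells of a type and less RNA per cell cannot be told apart.

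Promoters are shown first because they carry the sequence these factors recognise. RefSeq promoters (build GRCm38.p6, 250 bases before to 50 after the start of a gene) were found for 32 of the 38 genes. They were searched on both strands for the E-box CACGTG, for the longer form TCACGTGA that contains it, and for the palindromic CLEAR consensus of lysosome genes, which contains both and is longer again. CACGTG was in 13 of the 32 promoters (40.6%), against 8.09% of the promoters of 27025 genes. TCACGTGA was in 7 of the 32 (21.9%), against 1.12% of all genes. The exact 10-base CLEAR consensus was in 0 of the 32, and in 0.370% of all genes. At so low a share of all genes, 0 of 32 does not show a lack. Near matches to the consensus were not counted. The genes with TCACGTGA were Ctsa, Ctsd, Gla, Mcoln1, Cd164, Atp6v0d1 and Atp6v1a, so it occurred among proteases, glycosidases, membrane proteins and pump subunits. A match describes letters in a window and not binding.

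The 6 stretches below cover TCACGTGA, in capitals, in 6 of these 7 genes, because these are the matches that the hydrolase, membrane and pump groups share. Ctsa and Gla hold 2 copies each. The strand is that of the gene and each stretch runs 5′ to 3′ (Ctsa chr2:164833735-164833797, plus; Ctsd chr7:142387894-142387951, minus; Gla chrX:134601168-134601255, minus; Mcoln1 chr8:3500448-3500505, plus; Cd164 chr10:41519387-41519444, plus; Atp6v0d1 chr8:105566040-105566093, minus; all GRCm38.p6).
Ctsa: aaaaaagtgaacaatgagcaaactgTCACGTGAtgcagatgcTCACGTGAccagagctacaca
Ctsd: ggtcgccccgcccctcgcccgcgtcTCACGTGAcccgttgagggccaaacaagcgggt
Gla: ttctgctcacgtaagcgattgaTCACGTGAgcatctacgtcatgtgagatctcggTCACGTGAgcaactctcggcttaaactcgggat
Mcoln1: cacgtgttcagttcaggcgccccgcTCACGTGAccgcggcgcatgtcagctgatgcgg
Cd164: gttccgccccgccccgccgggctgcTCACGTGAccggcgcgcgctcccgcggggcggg
Atp6v0d1: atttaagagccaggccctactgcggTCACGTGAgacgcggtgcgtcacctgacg

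Lamp1, the gene with the highest level of the 38, holds 4 copies of CACGTG within 102 bases, in capitals here (chr8:13159075-13159176, plus, GRCm38.p6). It was chosen for display after its values were seen, as were the next 3 genes.
Lamp1: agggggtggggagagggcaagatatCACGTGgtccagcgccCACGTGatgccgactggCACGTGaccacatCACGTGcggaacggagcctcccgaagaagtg
Ctss, Ctsk and Laptm5, of the group known mainly from macrophages and osteoclasts, had none of the 3 motifs in their promoters, and the 100 bases before each start are shown for contrast (chr3:95526686-95526785, chr3:95499110-95499209 and chr4:130913216-130913315, all plus, GRCm38.p6). No promoter entry was used for Atp6v0d2. CACGTG was in 13 of the 32 promoters, so most lacked it, among them those of Gusb, Hexa, Ctsz and Lamp2. Its lack is therefore not particular to Ctss, Ctsk and Laptm5.
Ctss: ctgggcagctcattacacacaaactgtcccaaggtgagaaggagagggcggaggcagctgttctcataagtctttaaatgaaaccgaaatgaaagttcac
Ctsk: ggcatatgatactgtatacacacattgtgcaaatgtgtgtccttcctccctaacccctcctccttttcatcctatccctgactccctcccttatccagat
Laptm5: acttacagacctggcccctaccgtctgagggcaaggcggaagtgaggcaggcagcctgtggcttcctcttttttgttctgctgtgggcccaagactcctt

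The labels of 2 of the 6 libraries conflict. The library labelled flox 3 by its genotype field has a title naming LKO, and the library labelled LKO 1 has a title naming flox. Hkdc1 counts were 49 in flox 1, 22 in flox 2 and 1 in the library labelled flox 3. They were 10 in the library labelled LKO 1, 1 in LKO 2 and 4 in LKO 3. No grouping was chosen from these values. The comparison was made in 3 readings: by the genotype field (3 against 3), in the 4 libraries whose labels agree (flox 1 and flox 2 against LKO 2 and LKO 3) and by the titles (3 against 3). The readings share libraries, so they are not independent of each other. Library names below follow the genotype field. Total counts were 16166515 to 17366295 per library. LKO 2 and LKO 3 also held RNA of adrenal cortex markers, 2108 and 226 CPM summed over 8 genes (CPM is the count of a gene scaled to a common library total with TMM factors) against 6.29 to 9.66 in the other 4 libraries, where the adrenal receptor gene Mc2r was at 0. The 5 adipocyte markers summed to 80.1 and 9.31 CPM there, against at most 0.453 elsewhere. The 5 adrenal medulla markers summed to 224 and 25.1 CPM there, against at most 0.123 elsewhere. LKO 2 and LKO 3 are in the LKO group of all 3 readings, so this RNA goes with the LKO label in each. They are all the LKO libraries of the agreeing reading, so in it this RNA and the genotype cannot be told apart. The part of this RNA in the values below was not tested.

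Levels were compared between genes as FPKM, which scales fragments by gene length and library total. Lamp1, which encodes a major glycoprotein of the lysosome membrane, had the highest mean FPKM over the 6 libraries, 261 (range 224 to 320). Ctsz (197, 155 to 250), a carboxypeptidase, and Ctsb (197, 167 to 256), a cysteine protease, followed with the same mean FPKM to 3 digits and overlapping ranges. Ctsd, the main aspartic protease, came next at 159 (118 to 231) and Sqstm1, which encodes the autophagy receptor p62, at 141 (110 to 167). Ctss was sixth with a mean FPKM of 83.8 and Ctsl seventh with 80.7, but the range of Ctss (44.4 to 175) enclosed that of Ctsl (68.0 to 97.4). At the low end stood the regulators Tfe3 (3.44, 2.92 to 3.95), Tfeb (2.89, 2.67 to 3.14) and Mitf (0.931, 0.675 to 1.66), together with Gla (2.49) and Ctsk (2.08). The ranges of Tfe3 and Tfeb overlapped between 2.92 and 3.14 FPKM. Of the 10 genes with the highest mean FPKM 6 were proteases and 2 membrane proteins, and all 3 transcription factors were among the lowest 5.

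**Figure D1:**
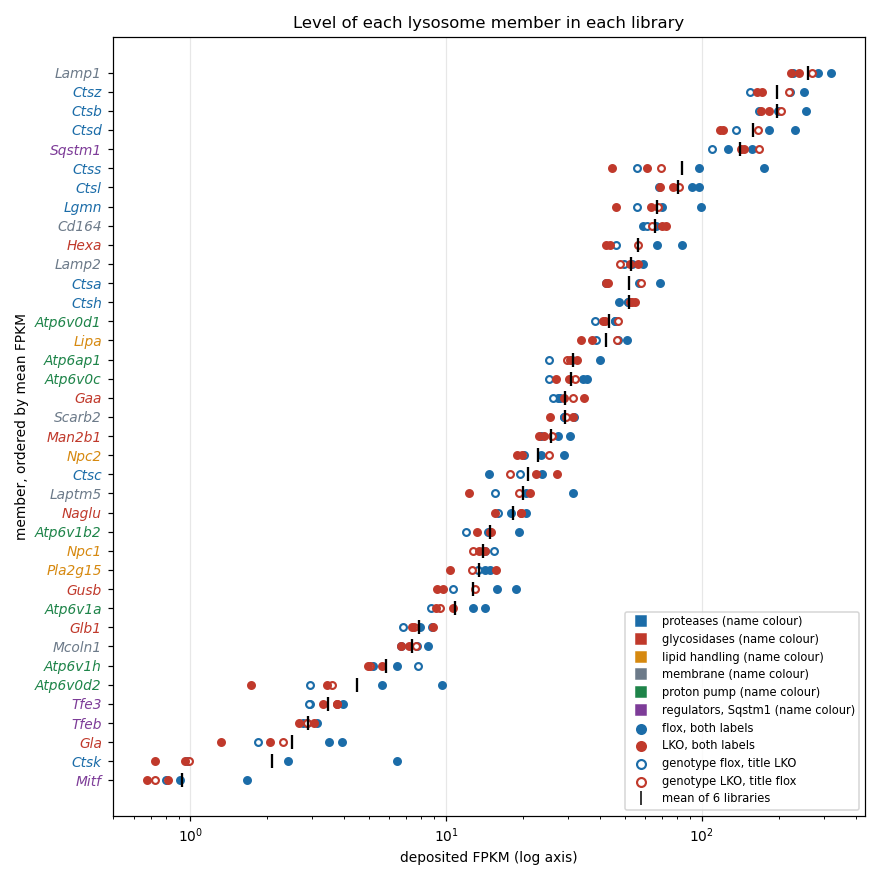
Deposited FPKM (log axis) of each of the 38 genes in each of the 6 libraries, ordered by the mean, which a black tick marks. Blue points are libraries labelled flox and red points libraries labelled LKO by the genotype field, and open points are those whose title names the other genotype. Name colours give the gene groups. Most genes form a tight cluster of points, while Ctss, Atp6v0d2, Gla and Ctsk spread widely, with flox 1 at 175 FPKM for Ctss and 6.45 for Ctsk.

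The genes differed greatly in how far they varied between libraries. On the CPM scale, the highest library was 1.13 times the lowest for Lamp2, a membrane protein of chaperone-mediated autophagy, 1.14 times for Man2b1, the acid alpha-mannosidase, and 1.19 times for Mcoln1, the lysosomal calcium channel. It was 7.90 times for Ctsk, 4.66 times for Atp6v0d2, 3.27 times for Ctss, 2.49 times for Gla and 2.11 times for Laptm5. So 4 of the 5 widest ranges belonged to the 4 genes known mainly from macrophages, other blood cells or osteoclasts. All 4 were highest in flox 1, which was the highest library for 13 of the 38 genes and for 26.6% of all genes tested. LKO 3 was lowest for 3 of the 4, and LKO 2 was lowest for Ctsk.

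**Figure D2:**
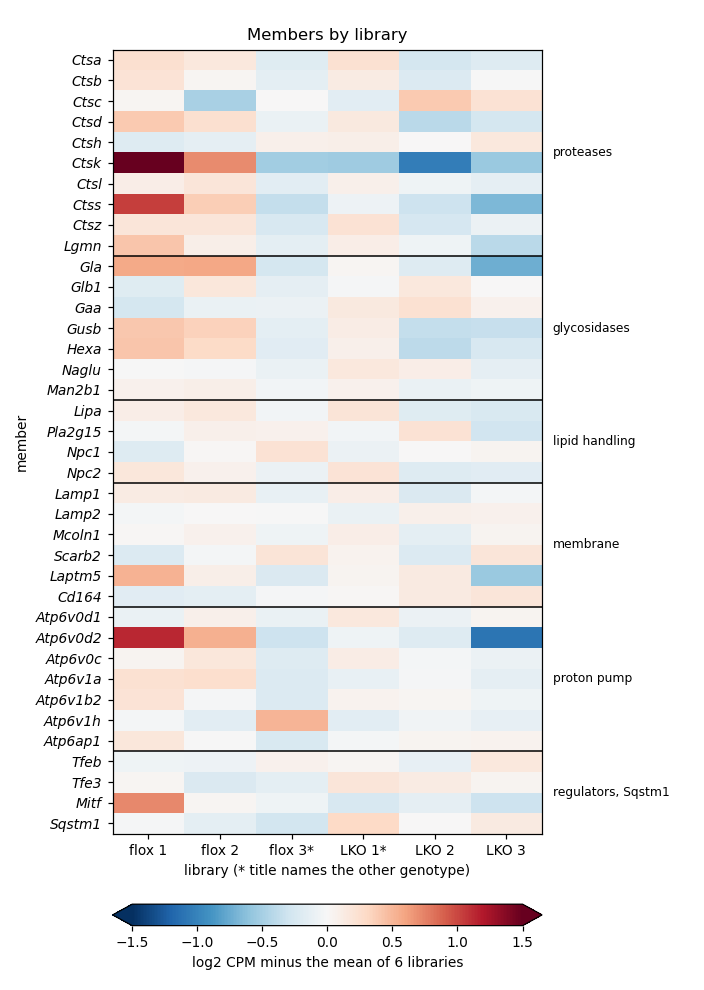
Log2 CPM of each gene in each library minus that gene's mean over the 6 libraries, by gene group, with the colour scale ending at -1.5 and 1.5. An asterisk marks the libraries whose title names the other genotype. Ctsk, Ctss and Atp6v0d2 show the strongest colours, high in flox 1 and flox 2. Gusb, Hexa and Gla are also highest in flox 1 and flox 2, more faintly, and the regulators Tfeb and Tfe3 stay pale.

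No gene of the 38 passed edgeR's quasi-likelihood test at an adjusted p of 0.05 in any of the 3 readings. By the genotype field 0 of 14310 genes tested passed (0%), in the 4 agreeing libraries 91 of 14625 (0.622%) and by the titles 51 of 14310 (0.356%). In the 4 agreeing libraries 9 of the 38 were lower in LKO at an unadjusted p under 0.05 (9.88% of all genes tested) and 1 was higher (6.74%). By the titles 12 were lower (8.59% of all genes) and 1 higher (5.31%), and by the genotype field 3 were lower (4.76%) and 1 higher (4.11%). DESeq2 called 6 lower in the 4 agreeing libraries (3.07% of all genes): Atp6v0d2, Ctsd, Ctsk, Ctss, Gusb and Hexa. It called 7 lower by the titles (3.10% of all genes), namely Atp6v0d2, Ctsa, Ctsd, Ctss, Ctsz, Gusb and Hexa, and 0 by the genotype field (0.0978%). It called 0 of the 38 higher in the agreeing libraries (1.94% of all genes), by the titles (1.30%) and by the genotype field (0.147%). In the 4 agreeing libraries 19 of the 38 had both LKO libraries below both flox libraries (25.3% of all genes) and 7 had them above (24.0%). By the titles 16 had every LKO library below every flox library (10.6%) and 0 above (8.43%). By the genotype field these counts were 2 (6.74%) and 4 (7.77%). The median log2 fold change, LKO against flox, of the 38 was -0.154 in the 4 agreeing libraries, -0.186 by the titles and -0.066 by the genotype field, beside 0.005, 0.004 and -0.005 for all genes tested.

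Cell marker sums are set beside these values. The 12 general macrophage markers summed to 856, 677, 550, 571, 749 and 435 CPM, in the order flox 1, 2, 3 and LKO 1, 2, 3, and none of the 12 was at 0 in all libraries. Their order differed by gene. Adgre1 was at 120 CPM in LKO 2 and 42.1 to 55.7 elsewhere, and Csf1r (189) and Aif1 (14.8) were highest in LKO 2 too. Mertk was highest in the library labelled flox 3 (62.9), and the rest, such as Mpeg1 (343), in flox 1. The 9 Kupffer cell markers summed to 1124, 1095, 1109, 1097, 1271 and 897 CPM, but its genes differed in order. Marco was at 98.7 CPM in LKO 2 and 2.25 to 13.6 elsewhere, Timd4 was at 27.9 in LKO 2 and 3.21 to 8.73 elsewhere, Clec4f was lowest in flox 1 at 136, and C1qa, C1qb and C1qc were highest there at 175, 220 and 186. The 9 markers of lipid-associated macrophages, the scar- and lipid-linked macrophages of fatty liver, summed to 1304, 820, 273, 483, 230 and 205 CPM in the same order, so in sum flox 1 and flox 2 stood above the other 4 libraries. Fabp5 differed, at 79.7 CPM in the library labelled flox 3 against 66.7 in flox 1 and 60.9 in flox 2. In the 4 agreeing libraries 3 of these 9 fell by edgeR (0.622% of all genes tested passed): Trem2 (log2 fold change -3.27, adjusted p = 0.0455), Spp1 (-3.27, 0.0291) and Lgals3 (-2.21, 0.0455). By the titles 1 of the 9 fell (0.356% of all genes passed), and by the genotype field 0 (0%). The 9 stellate cell and fibroblast markers summed to 1209 and 844 CPM in flox 1 and flox 2 and to 301 to 450 elsewhere. Acta2 had another order, at 9.17 CPM in LKO 2 and 5.38 in LKO 3 against 3.02 in flox 2. In the agreeing libraries 4 of these 9 fell by edgeR (0.622% of all genes tested passed), and 0 passed by the titles (0.356%) or the genotype field (0%). The 5 cholangiocyte markers summed to 41.5, 21.5, 9.96, 14.4, 6.39 and 7.22 CPM, highest in flox 1 and flox 2 as well. In the agreeing libraries 0 of the 5 passed edgeR and 5 were lower at an unadjusted p under 0.05 (9.88% of all genes tested). DESeq2 called 4 lower there (3.07% of all genes). The 6 endothelial markers summed to 264, 297, 359, 317, 381 and 334 CPM, lowest in flox 1. In the agreeing libraries 5 of the 6 had both LKO libraries above both flox libraries (24.0% of all genes). Lyve1 had them below (25.3% of all genes). None of the 6 passed edgeR in any reading. The sum of the 9 hepatocyte markers tested, most of it Alb, was lowest in flox 1 at 65397 CPM and highest in the library labelled flox 3 at 100679. Each of the 9 was lowest in flox 1, but the highest library differed by gene. Apoa1 was highest in the library labelled LKO 1 (8279), Serpina1c in LKO 2 (710) and Cyp2e1 in LKO 3 (8355). The part of these cell markers in the lysosome values was not tested.

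Among the proteases Ctsk and Ctss varied most between libraries. Values in 6 libraries are in the order flox 1, 2, 3 and LKO 1, 2, 3 from here on. Ctss (GRCm39 chr3:95434097-95463714, as all gene positions below), a cysteine protease that trims the invariant chain in antigen-presenting cells, stood at 209 CPM in flox 1, 132 in flox 2, 79.8 in the library labelled flox 3, 96.9 in the library labelled LKO 1, 82.0 in LKO 2 and 63.9 in LKO 3. The agreeing flox libraries were above the other 4, and by the genotype field the groups overlapped. The fold change of Ctss on the log2 scale was -1.22 in the 4 agreeing libraries (SE 0.26, adjusted p = 0.112 by edgeR), -0.95 by the titles (SE 0.26, adjusted p = 0.169) and -0.79 by the genotype field (SE 0.33, adjusted p = 0.554). With a library left out of the agreeing 4, the values ranged from -1.52 without flox 2 (edgeR adjusted p = 0.0788) to -0.85 without flox 1 (0.363), and without LKO 2 Ctss passed (-1.40, 0.0113). By the titles Ctss was at -0.60 without flox 1 (edgeR adjusted p = 0.300). Ctss made up 13.9% of the summed FPKM of the 10 proteases in flox 1, 9.89% in flox 2 and 5.87 to 7.83% in the other 4 libraries. Set against the summed CPM of the 12 general macrophage markers, Ctss was 24.4% in flox 1, 19.4% in flox 2, 14.5% in the library labelled flox 3, 17.0% in the library labelled LKO 1, 10.9% in LKO 2 and 14.7% in LKO 3, so flox 1 and flox 2 were highest on that scale too. That sum joins markers of unlike order, since Adgre1, Csf1r and Aif1 were highest in LKO 2.

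Ctsk (chr3:95406567-95416673), the collagen-digesting protease of osteoclasts, is the neighbour of Ctss on the same strand. It had few reads, 165, 59, 24, 26, 18 and 24 counts in the same order of libraries. In CPM that was 8.57, 3.64, 1.55, 1.54, 1.09 and 1.52. Flox 1 stood apart from all others and the library labelled flox 3 lay at the level of the LKO libraries. The log2 fold change was -2.22 in the 4 agreeing libraries (SE 0.51, adjusted p = 0.127 by edgeR), -1.73 by the titles (SE 0.58, adjusted p = 0.236) and -1.73 by the genotype field (SE 0.59, adjusted p = 0.554). Without flox 1 the log2 fold change was -1.48 in the agreeing libraries (adjusted p = 0.534 by edgeR), -0.89 by the titles and -0.91 by the genotype field. Leaving a library out of the agreeing 4 gave edgeR adjusted p of 0.0964 without flox 2, 0.0461 without LKO 2 and 0.0301 without LKO 3.

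The other 8 proteases varied less. Ctsd (chr7:141929648-141941775) was at 477, 429, 338, 401, 276 and 303 CPM, with LKO 2 and LKO 3 lowest. In the 4 agreeing libraries Ctsd gave a log2 fold change of -0.64 (SE 0.17, adjusted p = 0.158 by edgeR), and it is given here after its values were seen. By the titles Ctsd was at -0.51 (SE 0.13, adjusted p = 0.150 by edgeR). By the genotype field Ctsd was at -0.34 (SE 0.19, adjusted p = 0.587 by edgeR), with overlapping groups. Ctsa, a carboxypeptidase that also protects other hydrolases, was at 285, 268, 211, 282, 200 and 211 CPM, so flox 1, flox 2 and the library labelled LKO 1 formed 1 level and the other 3 a lower one. By the titles Ctsa gave a log2 fold change of -0.42 (SE 0.10, adjusted p = 0.140 by edgeR), and in the agreeing 4 the value was -0.42 (SE 0.15, adjusted p = 0.255). By the genotype field Ctsa was at -0.14 (SE 0.18, adjusted p = 0.797 by edgeR). Ctsz (316, 317, 236, 326, 236 and 263 CPM) was ordered likewise, with a log2 fold change of -0.34 in the agreeing libraries (SE 0.16, adjusted p = 0.357 by edgeR). Ctsb was at 1359, 1204, 1066, 1280, 1025 and 1177 CPM and gave -0.21 (SE 0.21, adjusted p = 0.657 by edgeR).

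Ctsc, which encodes the dipeptidyl peptidase that activates serine proteases of immune cells, went the other way. It was at 121, 85.0, 119, 106, 156 and 138 CPM, with LKO 2 and LKO 3 above the rest. Ctsc had a log2 fold change of 0.52 in the agreeing libraries (SE 0.21, adjusted p = 0.292 by edgeR) and 0.40 by the titles (SE 0.16, adjusted p = 0.327). Of the 10 proteases 8 had log2 fold changes below 0 in each reading, with a median of -0.381 in the agreeing libraries, -0.395 by the titles and -0.114 by the genotype field. All LKO libraries were below all flox libraries for 7 of the 10 by the titles (10.6% of all genes), 8 in the agreeing libraries (25.3%) and 1 by the genotype field (6.74%).

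**Figure D3:**
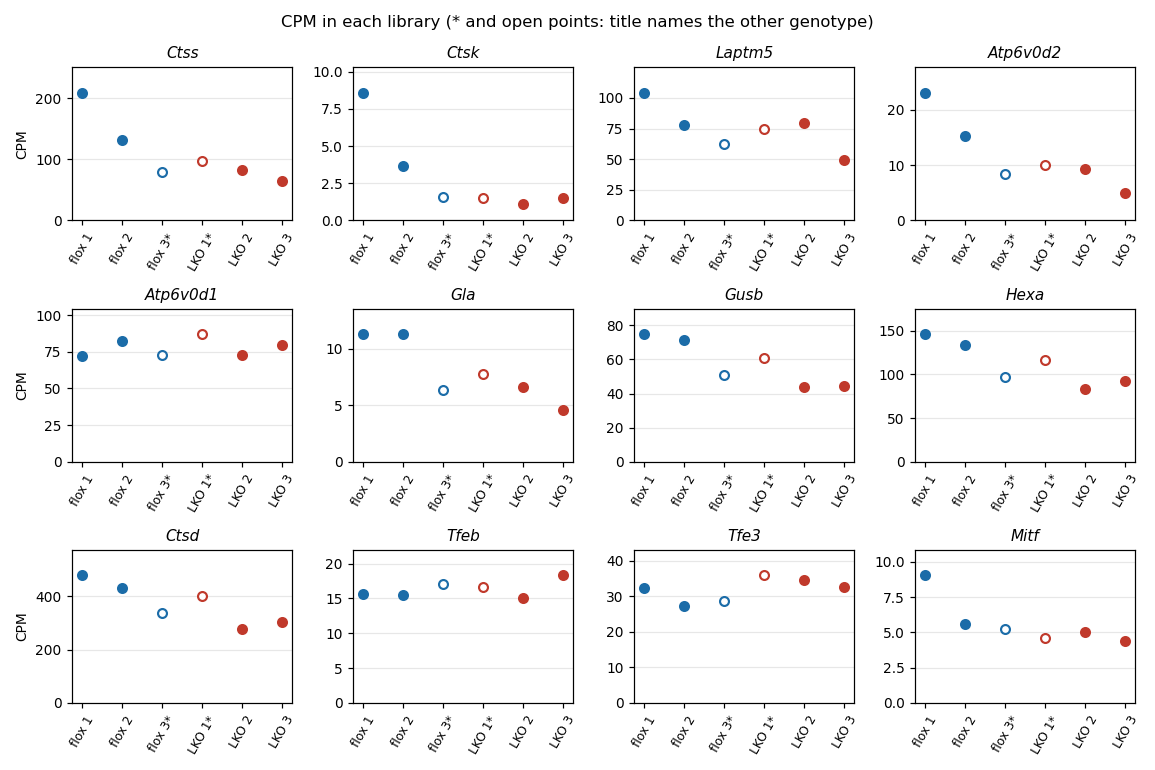
CPM of 12 genes in each of the 6 libraries, all axes starting at 0. Blue marks flox and red LKO by the genotype field, and open points with an asterisk are libraries whose title names the other genotype. Ctss, Ctsk and Atp6v0d2 are highest in flox 1, then in flox 2. Gusb, Hexa, Gla and Ctsd lie higher in flox 1 and flox 2 than in LKO 2 and LKO 3, and Atp6v0d1, Tfeb and Tfe3 spread little.

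Among the glycosidases, Gusb, Hexa and Gla were lower in the LKO libraries of the agreeing 4. Gusb (chr5:130017852-130031890), beta-glucuronidase, was at 74.8 and 71.7 CPM in flox 1 and flox 2, 50.8 in the library labelled flox 3, 60.8 in the library labelled LKO 1, and 43.9 and 44.3 in LKO 2 and LKO 3. The agreeing groups were 73.2 ± 2.19 and 44.1 ± 0.325 CPM (SD, n = 2 each). The log2 difference was -0.73 (SE 0.13, 95% interval -1.03 to -0.42, edgeR adjusted p = 0.0761), the lowest p of the 38 in that reading. By the titles it was -0.58 (SE 0.12, adjusted p = 0.103 by edgeR), and with a library left out that adjusted p was 0.0496 without the library labelled LKO 1 and 0.151 to 0.333 without another. By the genotype field the groups overlapped, with a log2 difference of -0.40 (SE 0.19, adjusted p = 0.563 by edgeR).

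Hexa (chr9:59446823-59472392), the alpha chain of beta-hexosaminidase, was at 146, 134, 97.3, 116, 83.4 and 92.9 CPM. LKO 2 and LKO 3 were again lowest, with the conflicting libraries in between. Hexa gave a log2 fold change of -0.66 between the agreeing groups (SE 0.15, adjusted p = 0.125 by edgeR) and -0.53 by the titles (SE 0.13, adjusted p = 0.129). By the genotype field Hexa was at -0.37 (SE 0.19, adjusted p = 0.571 by edgeR), with overlapping groups. Gla (chrX:133488898-133501874), alpha-galactosidase A, had 217, 184, 98, 131, 110 and 72 counts, or 11.3, 11.3, 6.34, 7.77, 6.64 and 4.56 CPM. Both agreeing flox libraries stood above the rest, and the log2 fold change between the agreeing groups was -1.01 (SE 0.25, adjusted p = 0.148 by edgeR). For Gla it was -0.79 by the titles (SE 0.23, adjusted p = 0.177 by edgeR). By the genotype field it was -0.61 (SE 0.29, adjusted p = 0.564 by edgeR), with overlapping groups. Gla is named here after its values were seen.

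Gaa, the acid alpha-glucosidase that degrades glycogen in lysosomes, was higher in LKO by the genotype field. The 3 libraries labelled flox were at 117, 131 and 132 CPM and the 3 labelled LKO at 154, 163 and 147, without overlap (7.77% of all genes were as fully separated upwards). This was a log2 fold change of 0.29 (SE 0.11, adjusted p = 0.554 by edgeR), and in the agreeing libraries 0.33 (SE 0.15, adjusted p = 0.357). Glb1, Naglu and Man2b1, which degrade galactosides, heparan sulfate and mannose chains, had highest-to-lowest CPM ratios of 1.27, 1.23 and 1.14. The 7 glycosidases had a median log2 fold change of -0.153 in the agreeing libraries, -0.139 by the titles and -0.070 by the genotype field.

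The 4 genes of lipid handling differed little. Lipa, the acid lipase that splits cholesteryl esters and triglycerides, was at 304, 317, 276, 326, 250 and 242 CPM. Npc2, which hands cholesterol to the membrane transporter NPC1, was at 138, 128, 115, 141, 107 and 109 CPM. In both, LKO 2 and LKO 3 were the lowest libraries. Npc1 had a log2 fold change of 0.18 by the titles (SE 0.12, adjusted p = 0.563 by edgeR) at 138 to 184 CPM. Pla2g15, the phospholipase of the lysosome, ranged from 33.2 to 47.0 CPM with no order by group. The lowest edgeR adjusted p of the 4 was 0.261, for Npc2 by the titles.

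Of the 6 membrane proteins, 5 varied by at most 1.32 times between libraries. Lamp1 (chr8:13209161-13225338) was at 753, 760, 641, 743, 595 and 678 CPM. The agreeing groups differed by -0.24 on the log2 scale (SE 0.18, 95% interval -0.69 to 0.20, edgeR adjusted p = 0.562). Cd164, a sialomucin of endosomes and lysosomes, was at 258, 262, 287, 293, 318 and 330 CPM. Every LKO library was thus above every flox library by the genotype field, as for 7.77% of all genes. The fold change of Cd164 on the log2 scale was 0.32 in the agreeing 4 (SE 0.15, adjusted p = 0.367 by edgeR) and 0.20 by the titles (SE 0.12, adjusted p = 0.513). Scarb2, the receptor that carries glucocerebrosidase to lysosomes, was at 160 to 210 CPM.

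Laptm5, a membrane protein of blood cell lysosomes, was the exception at 104, 77.5, 62.5, 74.7, 79.6 and 49.4 CPM. Flox 1 was highest and LKO 3 lowest, and the groups overlapped in all 3 readings. In the agreeing 4 the log2 fold change was -0.49 (SE 0.26, adjusted p = 0.427 by edgeR). As a share of the summed CPM of general macrophage markers Laptm5 ranged only from 10.6 to 13.1%, while Ctss ranged from 10.9 to 24.4%, Ctsk from 0.145 to 1.00% and Atp6v0d2 from 1.13 to 2.69%. The 4 genes known mainly from macrophages, other blood cells or osteoclasts had a median log2 fold change of -1.323 in the agreeing libraries. By the titles it was -1.024 and by the genotype field -0.872, and the other 34 had -0.103, -0.128 and -0.050. The summed CPM of the 4 was 345, 228, 152, 183, 172 and 120, a highest-to-lowest ratio of 2.88, against 1.15 for the other 34. These contrasts depend on which genes are put in the set. Ctsc, tied to immune cells above, was left among the other 34. Its log2 fold change was 0.52 in the agreeing libraries, 0.40 by the titles and 0.30 by the genotype field. Outside both sets, the osteoclast marker Acp5 was at -0.03 in the agreeing libraries, and the macrophage genes Lyz2 and Cd68 at -1.04 and -0.97.

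**Figure D4:**
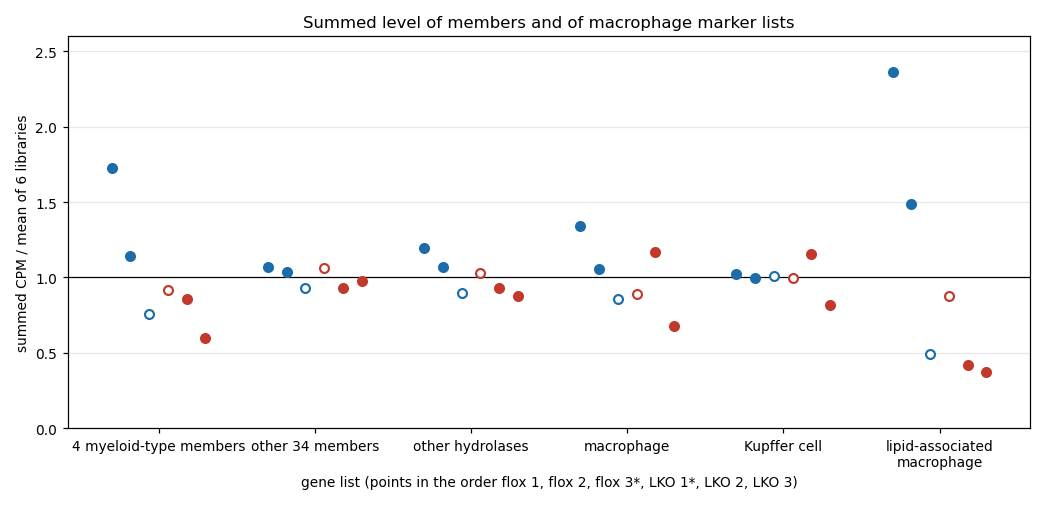
Summed CPM of 6 gene lists in each library, divided by the mean of the 6 libraries, with points in the order flox 1, flox 2, flox 3, LKO 1, LKO 2 and LKO 3 within a list. Blue marks flox and red LKO by the genotype field, and open points are libraries whose title names the other genotype. The other 34 lysosome genes stay near 1, the 4 genes known mainly from macrophages and osteoclasts run from 120 CPM in LKO 3 to 345 CPM in flox 1, and the markers of lipid-associated macrophages have the widest spread.

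The proton pump showed its contrast in 1 pair of alternative subunits. Atp6v0d1 (chr8:106251097-106292679) is the subunit d found in most cells and Atp6v0d2 (chr4:19876841-19922605) the one of osteoclasts, kidney and some macrophages. Atp6v0d1 was at 72.2, 82.1, 72.6, 86.9, 72.9 and 79.8 CPM, with a log2 fold change of -0.01 in the agreeing libraries (SE 0.15, 95% interval -0.37 to 0.34, edgeR adjusted p = 0.980). Atp6v0d2 had 443, 247, 131, 169, 153 and 78 counts, which is 23.0 and 15.2 CPM in flox 1 and flox 2 and 9.23 and 4.94 in LKO 2 and LKO 3. Flox 1 and flox 2 were highest and LKO 3 lowest. The log2 difference for Atp6v0d2 was -1.43 in the agreeing libraries (SE 0.35, adjusted p = 0.140 by edgeR), -1.09 by the titles (SE 0.33, adjusted p = 0.199) and -0.95 by the genotype field (SE 0.39, adjusted p = 0.554). With a library left out of the agreeing 4, the values ranged from -1.94 without LKO 2 (edgeR adjusted p = 0.000975) to -1.05 without LKO 3 (0.0683), and without flox 1 the value was -1.11 (0.546). By the titles it was -0.73 without flox 1 (edgeR adjusted p = 0.458).

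Per length, Atp6v0d2 made up 17.4% of the summed FPKM of the 2 subunits in flox 1, 10.9% in flox 2, 7.16% in the library labelled flox 3, 7.08% in the library labelled LKO 1, 7.71% in LKO 2 and 3.93% in LKO 3. Atp6v0d1 was thus the main form in every library. Of the other 5 pump genes, Atp6v1a, which encodes the catalytic subunit, was at 75.2 and 76.3 CPM in flox 1 and flox 2 and 55.9 to 63.2 in the other 4. Atp6v1h, a regulatory subunit, was at 79.8 CPM in the library labelled flox 3 and 50.2 to 55.1 in the others. Atp6v0c, which forms the proton ring, Atp6v1b2 and Atp6ap1 had highest-to-lowest CPM ratios of 1.28, 1.33 and 1.32. The 7 pump genes had a median log2 fold change of -0.118 in the agreeing libraries, -0.167 by the titles and -0.011 by the genotype field.

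The regulators Tfeb and Tfe3 varied little in RNA level. Tfeb (chr17:48047955-48103344) was at 15.6, 15.5, 17.1, 16.7, 15.0 and 18.3 CPM, with the groups mixed. In the agreeing libraries the log2 fold change was 0.10 (SE 0.18, 95% interval -0.33 to 0.53, edgeR adjusted p = 0.826), but -0.04 when scaled by library size alone and -0.05 without LKO 3, so no direction is given. Tfe3 (chrX:7628799-7641441) was at 32.2, 27.3, 28.5, 35.8, 34.5 and 32.5 CPM. By the genotype field every LKO library was above every flox library, as for 7.77% of all genes. The log2 fold change there was 0.22 (SE 0.10, 95% interval -0.01 to 0.46, edgeR adjusted p = 0.556), and by the titles 0.00 (SE 0.13, adjusted p = 0.994). Mitf (chr6:97784013-97998310), at 9.04 CPM in flox 1 and 4.43 to 5.61 in the other 5, had a log2 fold change of -0.63 in the agreeing libraries (SE 0.31, adjusted p = 0.385 by edgeR).

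Mitf made up 19.0% of the summed FPKM of the 3 factors in flox 1 and 9.60 to 13.7% in the others, where Tfe3 held 44.4 to 51.9% and Tfeb 36.9 to 43.4%. Sqstm1, the p62 receptor that delivers ubiquitinated cargo to autophagosomes, was at 464, 425 and 390 CPM in the libraries labelled flox and 576, 472 and 518 in those labelled LKO. By the genotype field the groups did not overlap (log2 fold change 0.29, SE 0.13, adjusted p = 0.557 by edgeR), and 7.77% of all genes were as fully separated upwards. In the agreeing libraries the log2 fold change was 0.16 (SE 0.17, adjusted p = 0.696). By the titles the sign turned, with -0.09 (SE 0.17, adjusted p = 0.865) and overlapping groups.

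**Figure D5:**
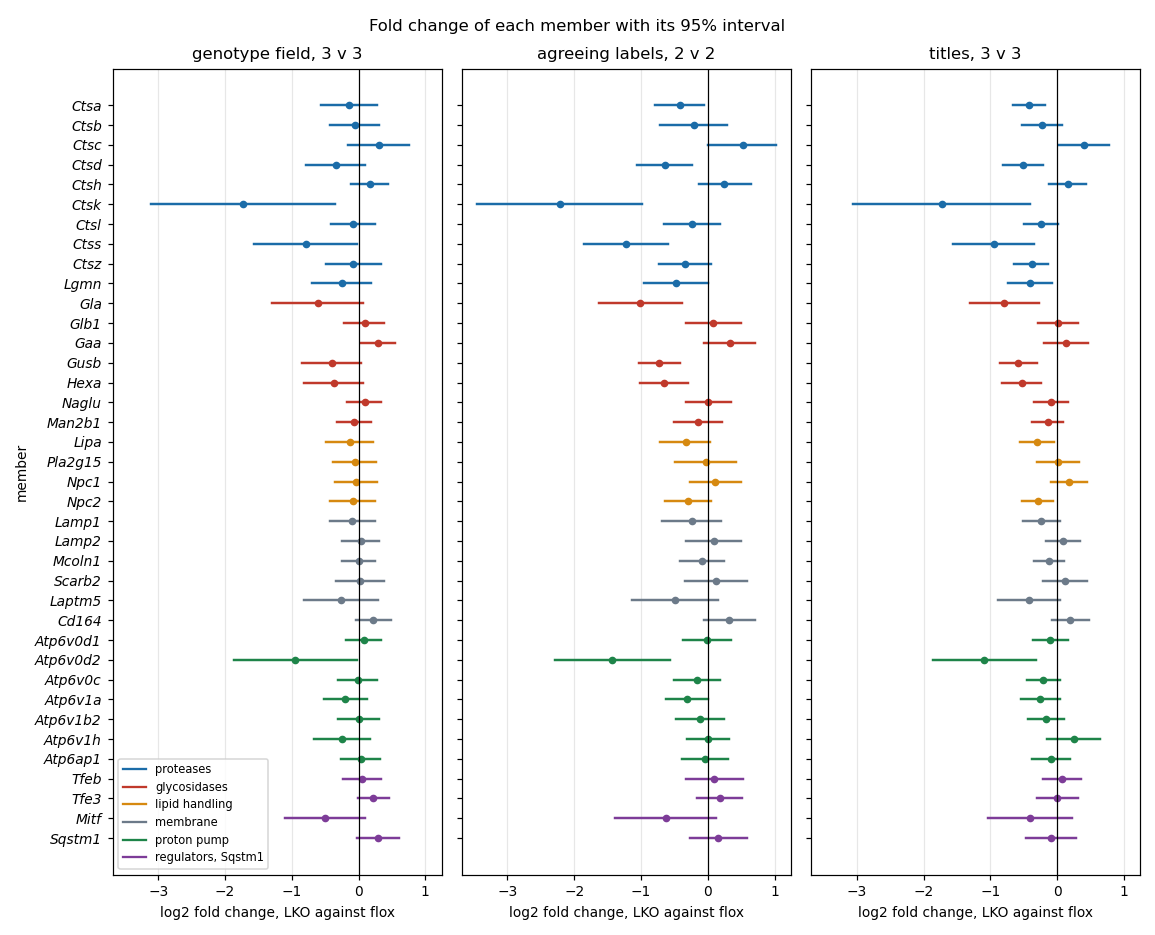
Log2 fold change of each of the 38 genes, LKO against flox, with its 95% interval from edgeR, in the 3 readings of the labels. Colours give the gene groups. Most points lie near 0. Ctsk, Ctss, Atp6v0d2 and Gla lie farthest to the left in each reading, with Ctsk at -2.22 in the agreeing libraries, and no gene of the 38 passes after adjustment over all genes.

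Lysosome genes outside the 38 were read from 7 further lists. Of 35 other hydrolases and cofactors 1 passed in the agreeing libraries (0.622% of all genes tested) and 1 by the titles (0.356%). In both cases this was Arsa, the sulfatide-degrading arylsulfatase A. Arsa was at 80.7 and 76.2 CPM in flox 1 and flox 2, 24.7 in the library labelled flox 3, 50.6 in the library labelled LKO 1, and 31.7 and 26.5 in LKO 2 and LKO 3. It fell in the agreeing libraries (log2 fold change -1.43, SE 0.15, adjusted p = 0.0259 by edgeR) and by the titles (-1.32, SE 0.19, adjusted p = 0.0438). Of 19 other membrane and transport genes tested 1 passed in each of those readings, beside the same shares of all genes. This was Cd63, a tetraspanin of late endosomes. Cd63 was at 74.9, 58.7, 17.8, 38.1, 13.0 and 15.9 CPM. Cd63 levels thus separated the titles' groups without overlap, as 10.6% of all genes did in that direction. It fell in the agreeing libraries (-2.21, SE 0.18, adjusted p = 0.0176 by edgeR) and by the titles (-1.88, SE 0.24, adjusted p = 0.0332).

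A list of 15 genes held regulators of the TFEB family and of mTORC1, a kinase complex that restrains these factors. Of the 15, 1 passed in the agreeing libraries (0.622% of all genes tested). This was Rragd, a GTPase that recruits mTORC1 to lysosomes and is a known target of the family. Rragd was at 29.8, 22.6, 5.88, 9.73, 4.22 and 5.51 CPM, with flox 1 and flox 2 well above the rest (log2 fold change -2.42, SE 0.24, adjusted p = 0.0225 by edgeR). Of 4 cathepsin inhibitors tested Cstb, cystatin B, fell by the titles (-0.92, SE 0.14, adjusted p = 0.0438 by edgeR), at 61.6, 60.3 and 48.6 CPM in flox 1, flox 2 and the library labelled LKO 1 against 26.2 to 33.4 in the rest. None of the 13 other pump genes tested, the 13 genes of lysosomal sorting and the 19 autophagy genes passed edgeR in any reading. At an unadjusted p under 0.05 the counts in the agreeing libraries were 1 lower pump gene and 1 lower sorting gene (9.88% of all genes tested) and 1 higher autophagy gene (6.74% of all genes). DESeq2 called 0 in these 3 lists in the agreeing libraries, beside 3.07% of all genes lower and 1.94% higher. There it called 3 hydrolases and cofactors, 1 gene of the TFEB and mTORC1 list and 1 cathepsin inhibitor lower. Of the membrane and transport genes it called 2 lower and 1 higher there. By the genotype field no gene of the 7 lists passed. Without flox 1, Arsa (edgeR adjusted p = 0.118), Cd63 (0.0699) and Rragd (0.109) no longer passed in the agreeing libraries, and without flox 2 Arsa did not (0.0583). By the titles Arsa, Cd63 and Cstb each lost the threshold when flox 1, flox 2, the library labelled flox 3, LKO 2 or LKO 3 was left out, with edgeR adjusted p of 0.0623 to 0.267.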

How the data were processed

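The 6 libraries were made from TRIzol-extracted liver RNA by poly-T selection, per the labels' protocols. The authors deposited 1 table with whole-number counts per gene, not normalized, and FPKM. The build was GRCm39, and featureCounts, HISAT, fastp, Cufflinks and StringTie were used, per the submitters' processing notes. Their versions and roles, the annotation and the strand setting are not stated there, so reads of overlapping genes cannot be assigned with certainty. Of the 38 genes 10 overlap another gene of the table, among them Ctsa (Pltp), Ctsb (Fdft1) and Ctsz (Nelfcd), and are uncertain to that extent.

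Genes kept by filterByExpr (at least 10 counts, at least 15 in total) were TMM scaled and tested with the quasi-likelihood test of edgeR 4.0.16 in R 4.3.3. Adjustment was by Benjamini-Hochberg over all genes tested, with a threshold of 0.05. Fold changes are LKO against flox. The standard error was the size of the log2 fold change divided by the square root of F. CPM used TMM factors of all 6 libraries, and FPKM was used as deposited to compare genes. Alternatives were other size factors, other filters, removal of the 20 most abundant genes, DESeq2 1.42.0, limma 3.58.1 (voom, and trend on log2(FPKM + 1) and log2(FPKM + 0.1)) and leaving out each library.

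The scripts were tested on simulated counts. Every pair of libraries differed by more than sampling noise (chi-square per gene 17.3 to 74.6). Hkdc1 CPM differed with an exact two-sided permutation p of 0.300 by the genotype field, 0.333 in the agreeing libraries and 0.100 by the titles, the last 2 being the smallest these designs allow. Its counting intervals (95%, exact Poisson) cover counting error only. By symbol 242 list entries were found, 1 more was found by synonym and 3 were not found. Full values are given for genes past the threshold, the 3 of lowest p in each direction and reading, the regulators, the 3 highest and 2 lowest by FPKM, and Atp6v0d1 with Atp6v0d2. Genes, lists and tests were chosen with earlier results of these data known.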

Additional observations from a re-analysis of the deposited data

How the results depend on the processing

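In the 4 agreeing libraries the count of the 38 genes past the threshold was 0 by edgeR, 6 with no filter on low counts (Atp6v0d2, Ctsk, Ctss, Gla, Gusb and Hexa; 5.05% of all genes tested in that setting), 6 by DESeq2 (5.01%, either direction), and 0 to 4 when 1 library was left out. Without LKO 2 it was 4 (Atp6v0d2, Ctsk, Ctss and Gla; 4.97% of all genes) and without LKO 3 it was 1 (Ctsk; 4.05%), without flox 1 it was 0 (0%) and without flox 2 it was 0 (0.323%), each leaving an arm with 1 library that was assumed to vary like the others. By the titles the count was 0 by edgeR, 7 by DESeq2 (4.40% of all genes) and 0 to 1 with 1 library left out (Gusb without the library labelled LKO 1, where 1.61% of all genes passed). By the genotype field it was 0 under every alternative run. The median log2 fold change of the 38 in the agreeing libraries (-0.154) was -0.288 with library size alone, which shifted the median of all genes to -0.131, -0.279 on log2(FPKM + 1), -0.287 on log2(FPKM + 0.1) and -0.176 to -0.151 with 1 library left out. By the titles (-0.186) it was -0.287, -0.239 and -0.284 in the same 3 settings and -0.192 to -0.151 with 1 library left out. By the genotype field it ranged from -0.152 to -0.016. Tfeb in the agreeing libraries (0.10) was -0.04, -0.03 and -0.04 in those 3 settings and -0.05 to 0.24 with 1 library left out (-0.05 without LKO 3). Atp6v0d1 (-0.01) was -0.11 to 0.08 with 1 library left out, above 0 without flox 2 (0.08) or LKO 2 (0.06). The cause of these shifts was not tested. Of the values of single genes under the alternatives, 590 kept direction and side of the threshold, 23 passed it and 37 lost it in the same direction, and 6 changed sign. The 37 were of Arsa, Cd63, Rragd, Dmxl2 and Cstb. No paired analysis was possible because the labels give no shared replicate numbers. Counts were lowest for Ctsk (18 to 165), Mitf (70 to 174), Gla (72 to 217) and Atp6v0d2 (78 to 443), whose values depth limits most among the 38.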

Other observations

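The table's own lysosome pathway column holds 100 genes outside the 38, read after the data were seen. In the agreeing libraries 3 of the 92 tested fell by edgeR (0.622% of all genes tested passed), and by the titles 2 of 91 (0.356%). By the genotype field 0 of 91 passed (0% of all genes). Dmxl2, which encodes a regulator of V-ATPase assembly, was the gene among these 3 that the other lists did not hold. It was at 45.9 and 42.1 CPM in flox 1 and flox 2 and 21.2 to 26.6 in the other 4 libraries, with a log2 fold change of -1.05 in the agreeing libraries (SE 0.13, adjusted p = 0.0399 by edgeR) and -0.71 by the titles (SE 0.22, adjusted p = 0.199). Without flox 1 the edgeR adjusted p in the agreeing libraries was 0.188.

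Further lysosome genes outside the 38 that did not pass are given here. Lyz2, macrophage lysozyme, was at 616, 327, 195, 256, 302 and 154 CPM in the order flox 1, 2, 3 and LKO 1, 2, 3, with flox 1 highest. In the agreeing libraries Lyz2 gave a log2 fold change of -1.04 (SE 0.41, adjusted p = 0.286 by edgeR). Cd68, a macrophage lysosome glycoprotein, was at 58.4, 37.4, 24.2, 30.5, 25.1 and 23.6 CPM, with -0.97 (SE 0.22, adjusted p = 0.125 by edgeR). Acp5, the tartrate-resistant acid phosphatase that marks osteoclasts along with Ctsk, was at 135, 145, 117, 138, 146 and 127 CPM and gave -0.03 (SE 0.15, adjusted p = 0.944 by edgeR). Psap, the precursor of the saposins that help lipid-degrading hydrolases, was at 1161, 1037, 824, 1051, 768 and 800 CPM, with -0.48 (SE 0.19, adjusted p = 0.288 by edgeR). These 4 were named after their values were seen.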
